A study of Homo sapiens with 18 samples.

Results

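Alanine tRNAs read the GCN codons of the messenger RNA and carry alanine to the ribosome. The genes considered here are all rows of the small RNA table whose name starts with tRNA-Ala, 51 of the 2462 features measured. Of these rows, 35 carry the anticodon AGC, 5 carry CGC and 10 carry TGC, and 1 row is named ATC. In the names, the first number after the anticodon marks the isodecoder, a distinct gene sequence with that anticodon, and the second marks its copy. The 45 numbered rows belong to 37 isodecoders, 23 AGC, 5 CGC and 9 TGC, and 7 of these have more than 1 copy. The other 6 rows have no isodecoder number and are named by chromosome.

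Small RNA was sequenced from extracellular vesicles (EVs) and from the HEK293T cells that released them, after 24 h without serum. HEK293T is a human embryonic kidney line. There were 3 libraries each of vesicles from ATG7-/- cells, vesicles from ATG12-/- cells, vesicles from wild type cells, ATG7-/- cells, ATG12-/- cells and wild type cells, 18 in all. ATG7 and ATG12 belong to the machinery that attaches LC3 to membrane lipids, and the study asked which RNAs enter vesicles through it. Each knockout is 1 clone, F2 for ATG7 and D9 for ATG12, so an effect of the lost gene and a trait of the clone cannot be told apart. The ATG7 and ATG12 transcripts, which would check the labels, were not analysed here. The labels call the libraries biological replicates without saying whether cultures were separate, so p-values measure the spread between these libraries.

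All human cytosolic alanine tRNAs are recognised by alanyl-tRNA synthetase through a guanine paired with uracil at the third pair of the acceptor stem. The A of the AGC anticodon is deaminated to inosine, which lets these tRNAs read codons ending in U, C or A. Alanine tRNAs begin with a run of guanines, and the 5′ fragments that angiogenin cuts from them are known for that run, which they share with cysteine tRNAs. The reads were 50 bp long and the table has 1 value per gene, so whole tRNAs and fragments cannot be told apart here.

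The following are the only alanine gene sequences with the labelled anticodon that could be read from the references used. AGC-10-1 and AGC-12-3 are among the 12 rows lower in ATG12-/- vesicles described below. AGC-2-2 belongs to the commoner AGC genes and was not among them. The anticodon is in capitals, and the coordinates are of GRCh38.
tRNA-Ala-AGC-10-1: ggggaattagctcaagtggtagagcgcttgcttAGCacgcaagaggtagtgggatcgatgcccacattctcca
tRNA-Ala-AGC-12-3: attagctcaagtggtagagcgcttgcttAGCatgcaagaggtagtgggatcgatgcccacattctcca
tRNA-Ala-AGC-2-2: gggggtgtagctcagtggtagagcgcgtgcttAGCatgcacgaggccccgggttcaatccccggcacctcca
AGC-10-1 lies at chr6:26687257-26687329 on the plus strand, 73 bases within an exon of the long noncoding RNA AL513548.1, and its sequence is from the GENCODE transcript. AGC-12-3 is given for the 68 bases at chr6:57856401-57856468 on the minus strand, within an exon of the long noncoding RNA AL021368.3, and its first 5 bases are not shown. AGC-2-2 lies at chr6:28863685-28863756 on the minus strand, 72 bases in an intron of LINC01623, and its sequence is from RefSeq's GRCh38.p14 promoter window.

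AGC-10-1 and AGC-12-3 matched at 67 of the 68 bases compared, and their difference was C38T, with AGC-10-1 first and positions counted from its 5′ end. AGC-10-1 and AGC-2-2 matched at only 56 of 74 aligned columns, 75.7%. AGC-10-1 starts with 4 guanines and AGC-2-2 with 5, both can form all 7 acceptor pairs, and both have G at base 3 and T at the fourth base from the 3′ end. Only sequences that held the labelled anticodon were counted. Of 34 other tRNA genes with such a sequence, 0 had 4 or more leading guanines and 0 had that G and T. Thus 5.6% of all 36 sequences held each feature. No cysteine tRNA gene was among the 34, so the guanine run was not compared with that family.

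RefSeq gave a position that was used for 32 of the 51 rows, matched by anticodon and number. The position listed for CGC-5-1 was not used, because the sequence there lacked the CGC anticodon. Of the 32, 25 lie on chromosome 6. Within it, 6 lie between positions 26553503 and 26730606, 17 between 28607156 and 28863756, and 2 between 57838350 and 57856473. Lengths of the 32 were 71 to 73 bases, so gene length differs little between them. Fragments and reads that match several genes are not accounted for by length. Of the 32 placed rows, 23 lie outside annotated genes and 9 in an intron or exon of one.

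Values are given as normalised reads: each library was divided by a single size factor before deposit. Cell libraries held 1188388 to 1804089 assigned reads and vesicle libraries 1881080 to 3382605, and 1 read equals 0.477 to 1.89 normalised reads. MicroRNAs abundant in HEK293 lines, 6 of 6 detected in every group, made up 0.078% to 0.143% of vesicle reads and 0.192% to 0.373% of cell reads. Of 8 serum and blood microRNAs 7 are in the table, and they summed to 181 to 263 normalised reads in ATG7-/- vesicles, 247 to 330 in ATG12-/- vesicles and 90.4 to 134 in wild type vesicles, against 1.27 to 11.4 over all cell libraries. Of the 7, hsa-miR-144-3p was at 0 in ATG7-/- vesicles, and hsa-miR-142-3p and hsa-miR-142-5p were at 0 in all 3 cell groups. The nuclear RNAs U1 to U6 with U3 made up 6.47% to 7.82% of reads in ATG7-/- vesicles, 13.5% to 15.4% in ATG12-/- vesicles, 11.4% to 13.4% in wild type vesicles and 3.45% to 4.65% in cells. The part of serum RNA or nuclear RNA in the results below was not tested.

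Alanine tRNAs were a small part of the tRNA reads in vesicles and a larger part in cells. They made up 0.626% ± 0.00267 of tRNA reads in ATG7-/- vesicles, 0.725% ± 0.00808 in ATG12-/- vesicles and 1.05% ± 0.122 in wild type vesicles (SD, n = 3 each). The cells had 5.22% ± 0.328 for ATG7-/-, 6.18% ± 0.424 for ATG12-/- and 5.75% ± 0.248 for wild type (SD, n = 3 each). Vesicles were below cells in every library of each genotype, and both knockout vesicle groups were below wild type vesicles without overlap. With each tRNA isodecoder counted once, an alternative chosen after seeing the data, the means were 1.54%, 1.81% and 2.49% in ATG7-/-, ATG12-/- and wild type vesicles and 9.57%, 11.3% and 9.99% in the cells of those genotypes. Each of the differences with every row counted had an exact permutation p of 0.1, two-sided, the smallest that 3 against 3 libraries allow, and 0.135 after adjustment over the 27 share tests. The denominator moved too: all tRNA made up 80.02% ± 2.26 of reads in ATG7-/- vesicles, 58.8% ± 2.15 in ATG12-/- vesicles and 50.0% ± 6.01 in wild type vesicles (SD, n = 3 each), against 23.97% to 31.7% as group means in cells. As a share of all reads, alanine tRNA was 0.501% in ATG7-/- vesicles, 0.426% in ATG12-/- vesicles and 0.531% in wild type vesicles, and the values of each knockout overlapped those of wild type.

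Over the 18 libraries AGC-4-1 had the highest mean, 1832 normalised reads, followed by AGC-3-1 with 1409, CGC-4-1 with 1088 and TGC-4-1 with 1017. The order differed between vesicles and cells. AGC-4-1 was the highest row in all 3 vesicle groups, with means of 3422 in ATG7-/-, 3130 in ATG12-/- and 2171 in wild type. In cells the highest row was CGC-4-1 in ATG7-/- (982 normalised reads) and in ATG12-/- (1450) and AGC-3-1 in wild type (1355), where AGC-4-1 averaged 799 in ATG7-/-, 717 in ATG12-/- and 755 in wild type. Of the 37 isodecoders, 33 had a copy with a mean of 10 or more. The other 4 were TGC-9-1, AGC-20-1, AGC-23-1 and TGC-8-1, with means between 2.11 and 7.18. Among AGC isodecoders, 2, 3, 4, 6 and 7 each averaged above 700 normalised reads, whereas the highest mean among isodecoders 9 to 23 was 279.5, for AGC-22-1.

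**Figure D1:**
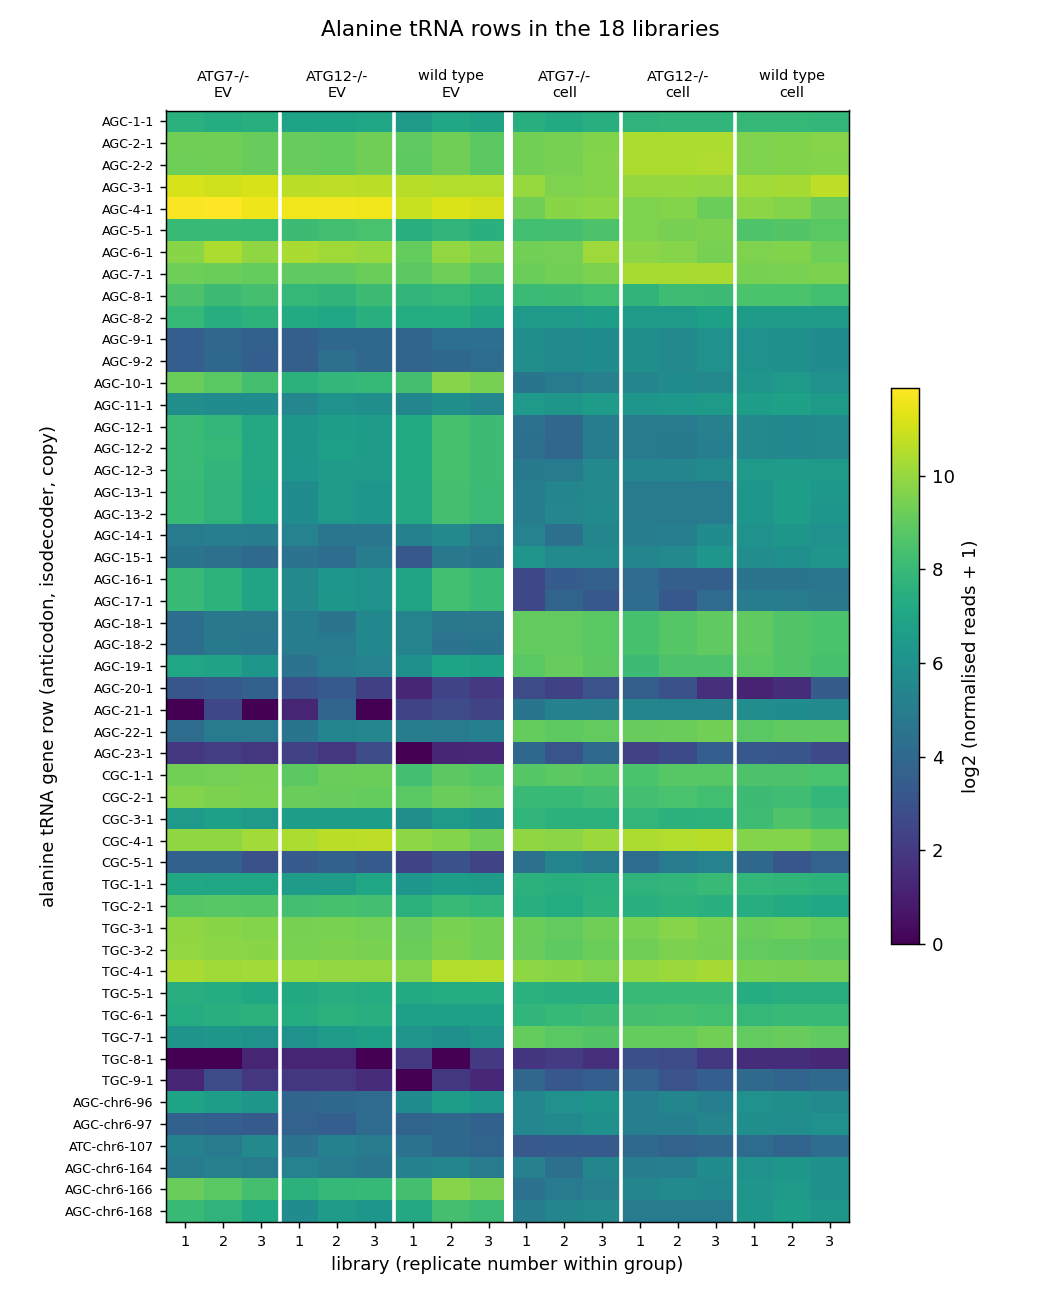
Heat map of log2 (normalised reads + 1) for the 51 alanine tRNA rows (vertical axis, by anticodon, isodecoder and copy, unnumbered rows last) in the 18 libraries (horizontal axis, 3 per group). AGC-4-1 and AGC-3-1 are brightest in vesicles, AGC-18 and AGC-22-1 are bright in cells only, and AGC-10-1, AGC-12, AGC-13, AGC-16-1 and AGC-17-1 are dimmer in ATG12-/- vesicles than in the other vesicles.

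Many rows are not separate measurements. Taking a median difference under 0.1 on the log2 scale of reads over all libraries as near identity, 20 of the 51 rows fell into 9 groups. A row joined a group when it was that near to any 1 of its members. AGC-10-1 and AGC-chr6-166 differed by at most 4 reads in any library, as did AGC-12-1 and AGC-12-2, and AGC-18-1 and AGC-18-2. AGC-2-1, AGC-2-2 and AGC-7-1 formed another group. In the vesicle libraries alone, the 3 copies of AGC-12, both copies of AGC-13, AGC-16-1, AGC-17-1 and AGC-chr6-168 formed a single group of 8. Not every pair in it was under 0.1. AGC-16-1 and AGC-17-1 joined it only through AGC-13-2 and AGC-17-1, at 0.0962, and AGC-13-1 and AGC-16-1 differed by 0.1125. In cells this group of 8 came apart: AGC-16-1 averaged 23.2 normalised reads in wild type cells and AGC-13-1 averaged 83.6. How reads that match several genes were shared out is not given in the sources used here.

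Vesicles were compared with the cells of the same genotype to ask which alanine tRNAs are over- or under-represented outside the cell. In wild type, 16 of the 50 tested rows were higher in vesicles and 25 were lower, against 38.9% higher and 42.9% lower, 81.8% in all, among the 905 features tested. A call is a limma adjusted p under 0.05. Of the 439 other tRNA genes tested, 239 were higher and 123 lower, and their median log2 fold change was 0.65, against -0.34 for alanine and -0.12 for all features. Cysteine tRNA genes had 5 higher and 13 lower of 27, with a median of -0.58. In ATG7-/- the alanine rows had 21 higher and 18 lower, against a background of 40.0% and 42.8% (82.8% in all). In ATG12-/- they had 18 higher and 23 lower, against 39.2% and 41.1% (80.3% in all). The share of alanine rows called was thus close to that of all features in each genotype. With libraries scaled to their totals the counts were 7 higher and 37 lower in ATG7-/-, 0 and 43 in ATG12-/- and 6 and 39 in wild type, and with microRNA scaling 29 and 13 in ATG7-/-.

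Within the AGC family the vesicle-to-cell difference ran from -3.94 to 3.15 on the log2 scale in wild type. Among the copies that stand for an isodecoder, those highest in wild type vesicles relative to cells were AGC-16-1, AGC-10-1 and AGC-17-1; AGC-chr6-166, nearly identical in reads to AGC-10-1, had 3.00. AGC-16-1 had 121, 310 and 258 normalised reads in wild type vesicles, against 22.9, 22.4 and 24.1 in wild type cells. Its vesicle-to-cell log2 fold change was 3.15 ± 0.34 (SE, adjusted p = 1.54e-08), and every vesicle library was above every cell library. AGC-10-1 had 334, 828 and 683 normalised reads in wild type vesicles, against 70.7, 82.5 and 62.8 in wild type cells, a log2 fold change of 2.99 ± 0.26 (SE, adjusted p = 5.05e-10). For AGC-17-1 it was 2.89 ± 0.36 (SE), for AGC-12-3 1.5 ± 0.27 and for AGC-13-1 1.49 ± 0.27.

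AGC-4-1, the most abundant row in vesicles, was also higher there than in cells. It had 1895, 2431 and 2188 normalised reads in wild type vesicles, against 905, 811 and 548 in wild type cells, a log2 fold change of 1.55 ± 0.18 (SE, adjusted p = 7.53e-08). The vesicle values lie above the cell values without overlap. The same fold was 2.11 ± 0.18 in ATG7-/- and 2.14 ± 0.18 in ATG12-/- (SE). Scaled to library totals instead, which moved the median of all features in wild type to -1.58, it was 0.03 (adjusted p = 0.895), and the calls of AGC-12-3 and AGC-13-1 in wild type also ended, at -0.0042 and -0.0129, while AGC-10-1, AGC-16-1 and AGC-17-1 kept theirs in wild type. The same scaling gave AGC-4-1 0.13 in ATG7-/- (adjusted p = 0.551) and 0.04 in ATG12-/- (0.868). In ATG12-/- it also ended the calls of AGC-10-1, whose main value there was 2.24 and became 0.16 (0.571), and of AGC-16-1, whose main value was 2.19 and became 0.17 (0.639).

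Other AGC genes were on the opposite side. AGC-22-1 had 30.4, 27.6 and 33.5 normalised reads in wild type vesicles, against 450, 499 and 494 in wild type cells, a log2 fold change of -3.94 ± 0.21 (SE, adjusted p = 6.52e-14). AGC-18-1 was lower in vesicles with a log2 fold change of -3.78 ± 0.23 (SE) and AGC-19-1 with -2.10 ± 0.24. Among the other anticodons, TGC-7-1 had -2.92 ± 0.16 and CGC-3-1 had -2.19 ± 0.17 (SE). All 5 rows were lower in vesicles under each of the 16 alternative settings run for this comparison. CGC-4-1, the commonest CGC gene, averaged 793 normalised reads in vesicles against 753 in cells of wild type, 1026 against 982 in ATG7-/- and 1524 against 1450 in ATG12-/-. Its vesicle-to-cell log2 difference was 0.07 ± 0.15 in wild type, 0.06 ± 0.15 in ATG7-/- and 0.07 ± 0.15 in ATG12-/- (SE), with no call. Under library totals it turned to -1.45, -1.92 and -2.03, and under microRNA scaling it was called higher in ATG7-/- vesicles (0.66, adjusted p = 0.00131).

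**Figure D2:**
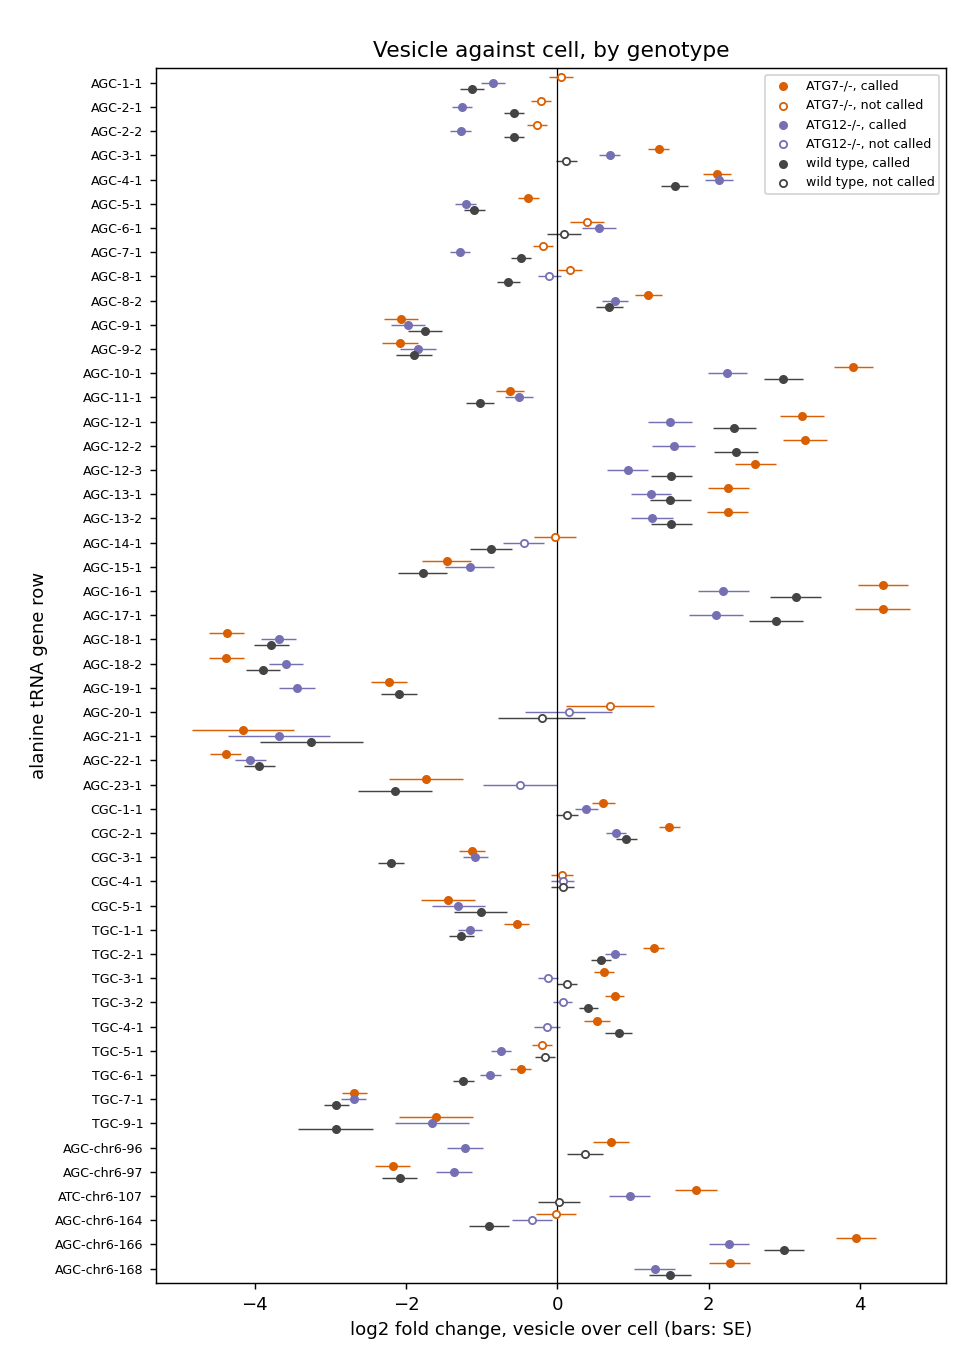
Vesicle-to-cell log2 fold change (horizontal axis, bars are the SE) of the 50 tested alanine tRNA rows (vertical axis) in ATG7-/-, ATG12-/- and wild type samples, filled where called. AGC-10-1, AGC-16-1 and AGC-17-1 lie to the right in all 3 genotypes at the deposited scaling and least so in ATG12-/-, AGC-18 and AGC-22-1 lie near -4, and CGC-4-1 lies near 0.

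ATG12-/- vesicles were then compared with wild type vesicles. In this comparison 12 of the 46 tested alanine rows were lower and 7 higher, which is 26.1% and 15.2%. Among the 850 features tested 21.1% were lower and 22.6% higher, 43.6% in all. The share of alanine rows called, 41.3%, was thus close to that of all features. Scaled to library totals 14 rows were lower and 1 higher, and with microRNA scaling 13 and 1; these scalings moved the median of all features to -0.30 and -0.33. All 12 lower rows carry the anticodon AGC, as do 32 of the 46 tested alanine rows. The 12 are AGC-10-1, the 3 copies of AGC-12, both copies of AGC-13, AGC-16-1, AGC-17-1, AGC-19-1, and the unnumbered AGC-chr6-96, AGC-chr6-166 and AGC-chr6-168. By the near-identity of their vesicle reads they amount to 4 separate measurements. Of the 421 other tRNA genes, 28 were lower and 126 higher, and the only call among the 22 cysteine tRNA genes was 1 higher.

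AGC-10-1 had 197, 233 and 247 normalised reads in ATG12-/- vesicles, against 334, 828 and 683 in wild type vesicles. All ATG12-/- values were below all wild type values, with wild type replicate 1 the nearest. The log2 fold change was -1.35 ± 0.29 (SE, adjusted p = 0.0019). AGC-16-1 had 46.9, 74.3 and 67.9 normalised reads in ATG12-/- vesicles, against 121, 310 and 258 in wild type vesicles, a log2 fold change of -1.77 ± 0.34 (SE, adjusted p = 9.34e-04). AGC-13-1 had 53.8, 83.5 and 73.5 normalised reads in ATG12-/- vesicles, against 143, 333 and 274 in wild type vesicles, with -1.75 ± 0.31 (SE). The groups did not overlap for any of the 12 rows. AGC-12-3 had a log2 fold change of -1.5 ± 0.29 and AGC-17-1 of -1.76 ± 0.34 (SE).

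The other two lower rows were not among those high in vesicles. AGC-19-1 had 22.1, 33.1 and 37.7 normalised reads in ATG12-/- vesicles, against 60.7, 116 and 106 in wild type vesicles, a log2 fold change of -1.56 ± 0.29 (SE, adjusted p = 6.86e-04). AGC-chr6-96 had 13.8, 14.6 and 17.0 normalised reads in ATG12-/- vesicles, against 52.0, 99.5 and 74.4 in wild type vesicles, with -2.20 ± 0.25 (SE, adjusted p = 2.55e-05), the largest fall among the alanine rows. Wild type replicate 1 was the lowest wild type library for both. All 12 rows stayed lower and called under each of the 17 alternatives run. Without wild type vesicle replicate 1 the fall was larger, at -1.74 for AGC-10-1, -2.18 for AGC-16-1 and -2.44 for tRNA-Ala-AGC-chr6-96.

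The 7 rows higher in ATG12-/- vesicles held all 3 anticodons. CGC-4-1 had 1355, 1582 and 1635 normalised reads in ATG12-/- vesicles, against 908, 821 and 651 in wild type vesicles, a log2 fold change of 0.95 ± 0.15 (SE, adjusted p = 2.29e-04). It was the only one of the 7 called under all 17 alternatives. TGC-6-1 had 0.73 ± 0.15, AGC-5-1 0.69 ± 0.15, AGC-4-1 0.53 ± 0.12 and TGC-2-1 0.52 ± 0.13 (SE). Each of these 4 kept its direction and lost its call when libraries were scaled by their totals or by microRNAs, with adjusted p between 0.0855 and 0.588.

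**Figure D3:**
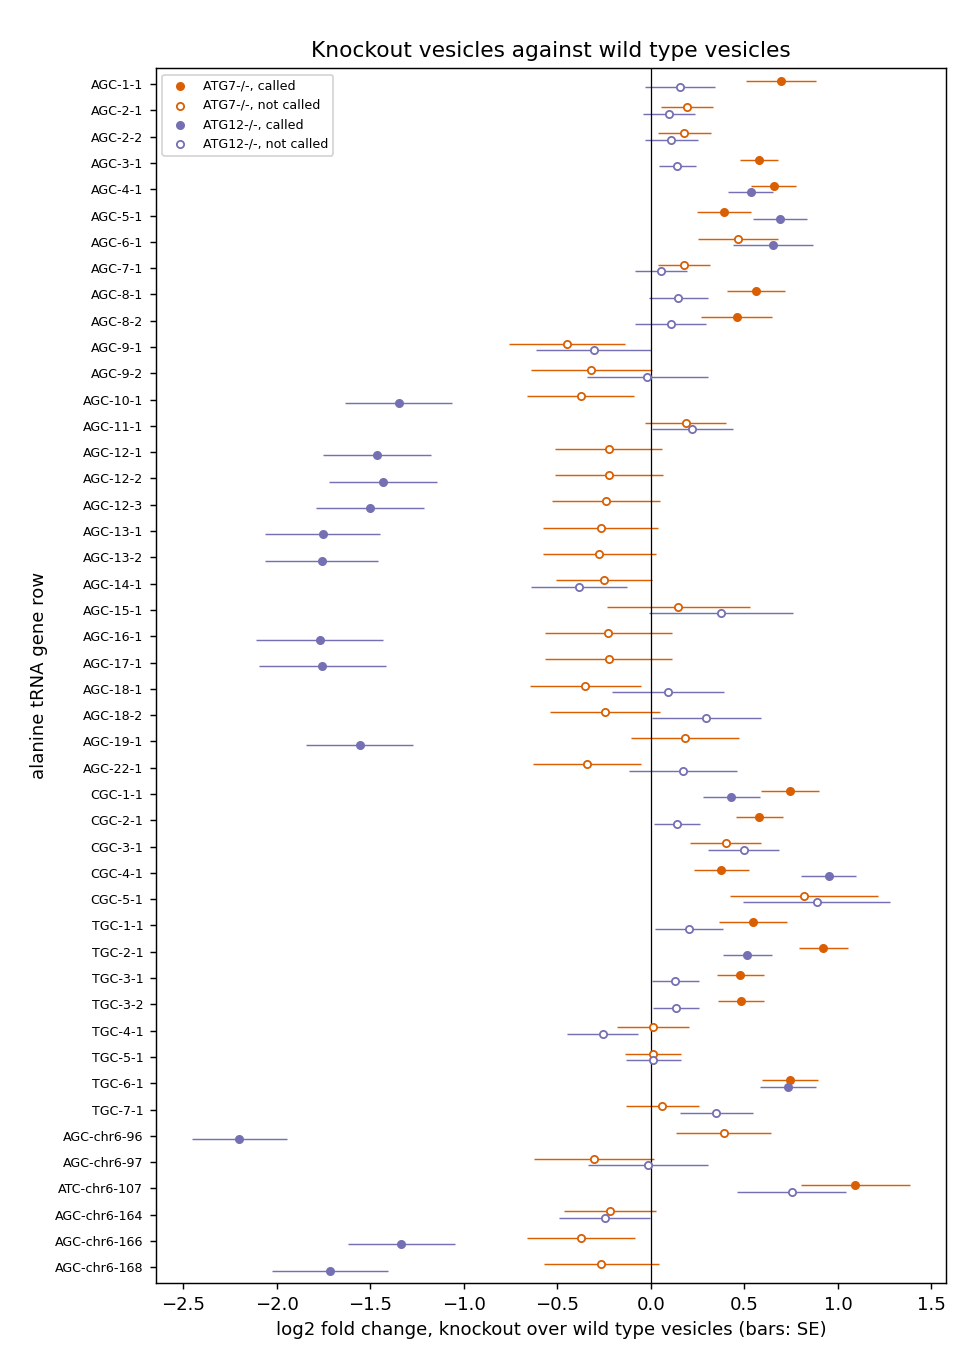
Log2 fold change of knockout over wild type vesicles (horizontal axis, bars are the SE) for the 46 tested alanine tRNA rows (vertical axis) in ATG7-/- and ATG12-/-, filled where called. The 12 rows lower in ATG12-/- vesicles lie between -2.20 and -1.33, while their ATG7-/- values lie between -0.38 and 0.39.

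In ATG7-/- vesicles no alanine row was called lower, although this depended on 1 wild type library and on scaling. Against wild type vesicles, 15 of 46 alanine rows were higher and 0 lower, against 33.5% higher and 28.9% lower, 62.5% in all, among the 850 features. With limma, 0 were lower at an unadjusted p under 0.05 too, and edgeR and DESeq2 also called 0 lower. Of the other tRNA genes 226 of 421 were higher, with a median log2 fold change of 0.50, against 0.18 for alanine rows and 0.12 for all features. AGC-10-1 had 578, 451 and 332 normalised reads in ATG7-/- vesicles, against 334, 828 and 683 in wild type vesicles, and the groups overlap (log2 fold change -0.38 ± 0.29 SE, adjusted p = 0.271). AGC-16-1 had 252, 201 and 119 normalised reads in ATG7-/- vesicles, against 121, 310 and 258 in wild type vesicles, with -0.23 ± 0.34 (SE, adjusted p = 0.576). Without wild type vesicle replicate 1, 6 rows were called lower and 13 higher. AGC-10-1 was then called lower at -0.77 (adjusted p = 0.00383), AGC-12-3 at -0.59 (0.0407) and AGC-13-1 at -0.63 (0.043). Library totals also called AGC-10-1 lower, at -0.75 (adjusted p = 0.036).

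At the deposited scaling the rows that rose in ATG7-/- vesicles came from all anticodons. TGC-2-1 had 421, 439 and 423 normalised reads in ATG7-/- vesicles, against 198, 253 and 228 in wild type vesicles, a log2 fold change of 0.92 ± 0.13 (SE, adjusted p = 3.86e-05). AGC-3-1 had 2236, 2053 and 2233 normalised reads in ATG7-/- vesicles, against 1522, 1425 and 1421 in wild type vesicles, with 0.58 ± 0.10 (SE). ATC-chr6-107, a row of 16.7 normalised reads on average in wild type vesicles, had 1.09 ± 0.29 (SE). By limma, 6 of 32 AGC rows, 3 of 5 CGC rows and 5 of 8 TGC rows rose, and the remaining riser was ATC-chr6-107. The AGC risers all belong to isodecoders 1 to 8, of whose 10 rows 6 rose, while 0 of 17 tested rows of isodecoders 9 to 23 rose, a division drawn after the values were seen. The count depended on the scaling: with library totals 2 rows were higher and 4 lower, with microRNA scaling 2 and 1. The 2 higher rows were TGC-2-1 and ATC-chr6-107 in both, so no AGC or CGC row was called higher there; AGC-3-1 had 0.20 (adjusted p = 0.198) and 0.21 (0.256). Those scalings moved the median of all features to -0.25 and -0.24.

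A direct comparison of ATG12-/- with ATG7-/- vesicles had 19 alanine rows lower and 1 higher, against 23.3% lower and 26.6% higher, 49.9% in all, among the 850 features. Of the other tRNA genes, 169 of 421 were lower and 10 higher, with a median of -0.26, against -0.29 for alanine rows. AGC-16-1 differed by -1.54 ± 0.34, AGC-19-1 by -1.74 ± 0.29 and AGC-chr6-96 by -2.59 ± 0.25 (SE, adjusted p between 1.17e-05 and 0.00239). AGC-10-1 differed by -0.97 ± 0.29 (SE, adjusted p = 0.0133), and its call ended without ATG7-/- vesicle replicate 1 (-0.78, 0.0616) or ATG12-/- vesicle replicate 1 (-0.88, 0.0521). Without ATG7-/- vesicle replicate 1, 11 rows were lower in place of 19. The 1 higher row was CGC-4-1, with 0.57 ± 0.15 (SE, adjusted p = 0.00619).

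**Figure D4:**
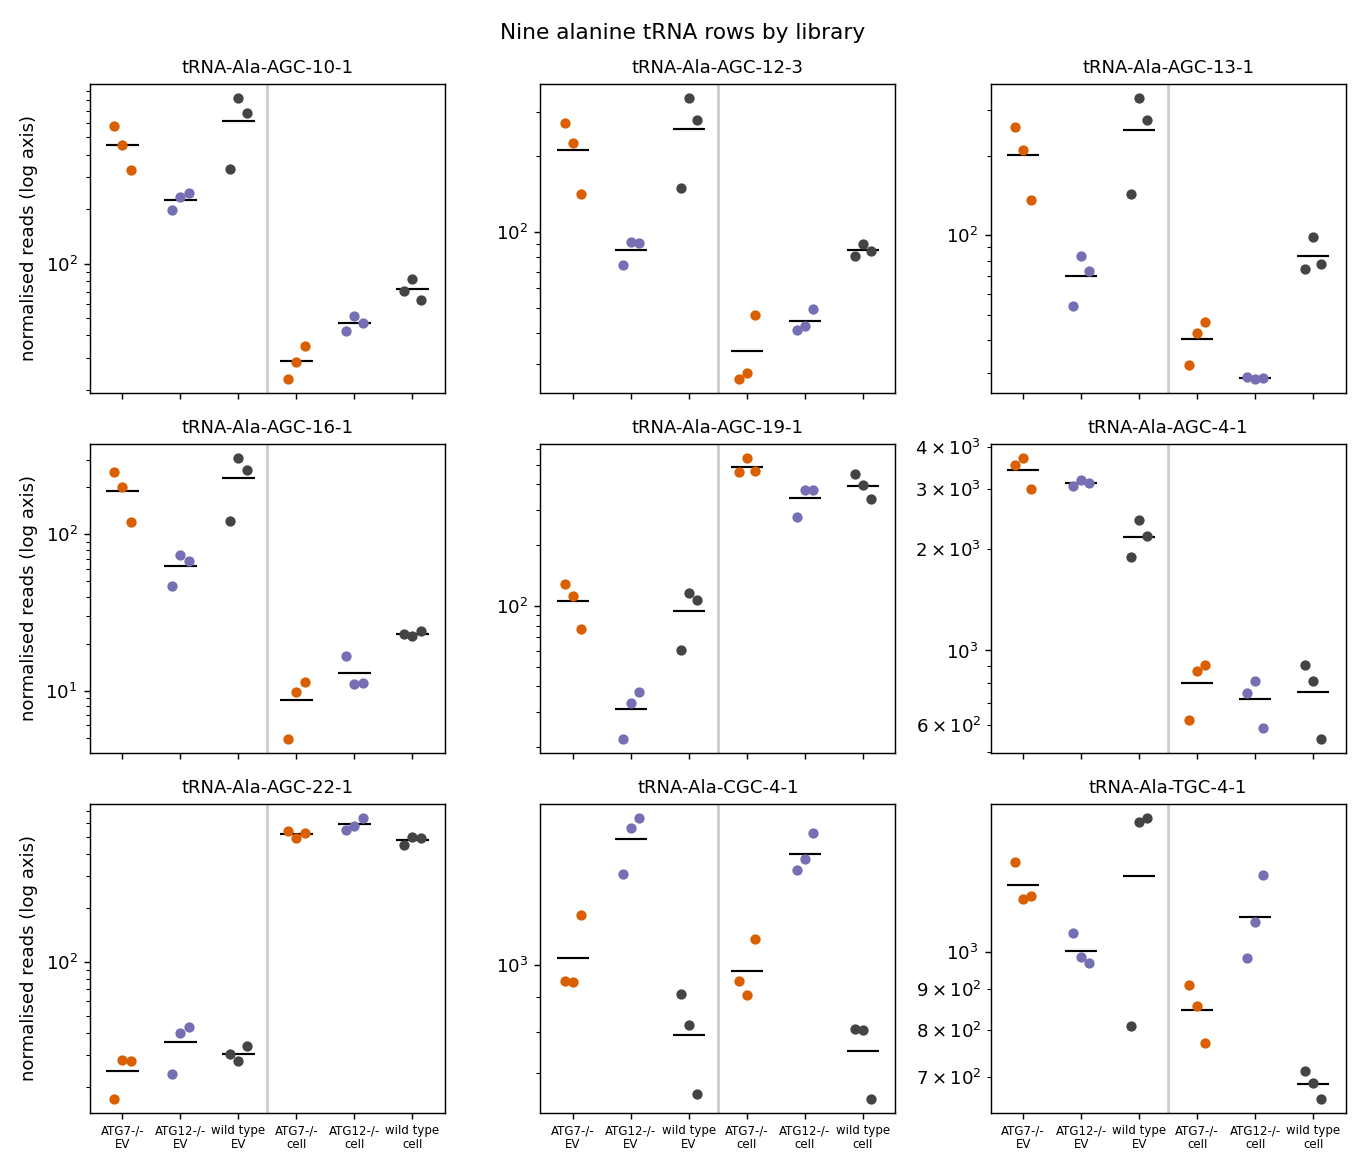
Normalised reads (vertical log axes, ranges differ) of 9 alanine tRNA rows in each library (points) of the 6 groups (horizontal axis), with group means as lines. AGC-10-1, AGC-12-3, AGC-13-1, AGC-16-1 and AGC-19-1 are lowest among vesicles in ATG12-/-, CGC-4-1 is highest in ATG12-/- in vesicles and in cells, and wild type vesicle replicate 1 is the lowest wild type vesicle library for 7 of the 9 rows.

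The cells of the knockouts were compared with wild type cells to see whether the same genes changed there. In ATG7-/- cells 16 of 49 alanine rows were lower and 1 higher, against 8.32% and 8.44%, 16.8% in all, among the 853 features tested. In ATG12-/- cells 11 were lower and 9 higher, against 18.2% and 7.5% (25.7% in all). The ATG12-/- balance depended on scaling: 3 were lower and 14 higher with library totals, 6 and 14 with TMM, edgeR or DESeq2, and 20 and 6 with microRNA scaling. In ATG7-/- cells DESeq2 had 16 lower and 4 higher. Of the 12 rows lower in ATG12-/- vesicles, 10 were lower in ATG7-/- cells, 83.3% of the 12 and 62.5% of the 16. In ATG12-/- cells 7 of the 12 were lower, 58.3% of the 12 and 63.6% of the 11. These overlaps count near-identical rows separately. The rows of the 12 not called in ATG7-/- cells were tRNA-Ala-AGC-19-1 (log2 fold change 0.32) and tRNA-Ala-AGC-chr6-96 (0.05). The 10 shared rows are thus the members of 2 groups with near-identical vesicle reads. They amount to 2 of the 4 separate measurements in vesicles. The same overlap among all features was not counted. In cells too, AGC-10-1 and AGC-chr6-166 held nearly the same reads, as did both copies of AGC-13 and AGC-chr6-168. Of the 16 rows lower in ATG7-/- cells 6 were called in all 17 alternatives, and of the 11 in ATG12-/- cells 3 were.

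AGC-10-1 had 23.1, 28.7 and 35.0 normalised reads in ATG7-/- cells and 42.5, 51.0 and 46.9 in ATG12-/- cells, against 70.7, 82.5 and 62.8 in wild type cells. Neither knockout overlapped wild type. The log2 fold change was -1.30 ± 0.19 (SE, adjusted p = 7.30e-04) in ATG7-/- cells and -0.61 ± 0.19 (SE, adjusted p = 0.0344) in ATG12-/- cells. The ATG12-/- call ended in 11 of 17 alternatives, among them without any 1 of the 3 ATG12-/- cell libraries and without wild type cell replicate 1 or 2, with adjusted p up to 0.251. AGC-13-1 had 32.1, 42.6 and 47.1 normalised reads in ATG7-/- cells and 28.9, 28.6 and 28.7 in ATG12-/- cells, against 74.5, 98.3 and 78.1 in wild type cells. Its log2 fold changes were -1.03 ± 0.19 in ATG7-/- cells and -1.5 ± 0.19 in ATG12-/- cells (SE), and both calls held in all 17 alternatives. AGC-12-3 had -1.36 ± 0.21 and -0.93 ± 0.21 (SE); the ATG12-/- value lost its call under library totals (adjusted p = 0.0647). AGC-19-1 was not called in either, at 0.32 ± 0.16 and -0.21 ± 0.16 (SE).

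A different set of alanine rows rose in ATG12-/- cells. AGC-7-1 had 1269, 1285 and 1305 normalised reads in ATG12-/- cells and 592, 651 and 733 in ATG7-/- cells, against 686, 706 and 730 in wild type cells. ATG12-/- stood above both other groups without overlap, by a log2 fold change of 0.86 ± 0.13 over wild type (SE, adjusted p = 6.12e-04) and 0.97 ± 0.13 over ATG7-/- (SE, adjusted p = 4.71e-04). AGC-2-1, whose reads are nearly those of AGC-7-1, had 0.78 ± 0.13 over wild type, and AGC-5-1 had 0.80 ± 0.13 (SE). CGC-4-1 had 1372, 1426 and 1552 normalised reads in ATG12-/- cells and 950, 905 and 1091 in ATG7-/- cells, against 809, 807 and 642 in wild type cells. Its log2 fold change in ATG12-/- cells was 0.95 ± 0.14 (SE, adjusted p = 6.17e-04), and its value in ATG12-/- vesicles was also 0.95. Under library totals it was 1.18 in ATG12-/- cells and 0.59 in ATG12-/- vesicles, and for tRNA-Ala-CGC-4-1 the vesicle change minus the cell change was then -0.59 (adjusted p = 0.0562). TGC-4-1 with 0.69 ± 0.14 and TGC-5-1 with 0.60 ± 0.12 (SE) also rose, and both lost their calls when scaled by microRNAs (adjusted p 0.068 and 0.098).

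CGC-3-1 fell in both knockout cells. It had 223, 193 and 195 normalised reads in ATG7-/- cells and 234, 195 and 203 in ATG12-/- cells, against 290, 387 and 299 in wild type cells. The log2 fold changes were -0.66 ± 0.15 and -0.62 ± 0.15 (SE), and without wild type cell replicate 2, the highest, both calls ended (-0.53, adjusted p = 0.0557, and -0.49, 0.0574). The ATG12-/- call of tRNA-Ala-CGC-3-1 also ended under library totals (-0.39, adjusted p = 0.096). AGC-3-1 fell in ATG7-/- cells, with a log2 fold change of -0.65 ± 0.16 (SE, adjusted p = 0.0188), and the call ended without wild type cell replicate 3 (-0.50, 0.0796). Counts also moved: without wild type cell replicate 2, 11 alanine rows were lower and 0 higher in ATG7-/- cells, and 5 lower and 7 higher in ATG12-/- cells. ATG12-/- against ATG7-/- cells had 8 alanine rows higher and 2 lower, against 5.63% and 14.4%, 20.0% in all, of the 853 features. It had 14 and 0 with library totals, TMM or edgeR, 21 and 0 with microRNA scaling, and 5 and 0 without ATG7-/- cell replicate 2 or without ATG12-/- cell replicate 3.

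Whether a knockout changed vesicles and cells by different amounts was tested as the vesicle change minus the cell change. For ATG7 this was positive in 16 of 50 alanine rows and negative in 0, against 26.3% and 28.7%, 55.0% in all, of the 905 features. With limma 0 were negative at an unadjusted p under 0.05, DESeq2 had 14 positive and 0 negative, and edgeR 5 and 2. It was positive in 212 of 439 other tRNA genes. AGC-3-1 had 1.22 ± 0.20 and AGC-1-1 had 1.18 ± 0.23 (SE, adjusted p = 3.26e-05 and 2.22e-04), and both held in all 22 alternatives. For AGC-3-1 the vesicle change was 0.58 and the cell change -0.65. CGC-3-1 had 1.06 ± 0.24 (SE, adjusted p = 8.94e-04). AGC-10-1 had 0.92 ± 0.36 (SE, adjusted p = 0.0372), with a fall in cells and no called change in vesicles, and its call ended in 12 of 22 alternatives with adjusted p up to 0.344. With TMM scaling 5 rows were positive and 2 negative, and with library totals 3 and 5. For tRNA-Ala-CGC-3-1 the call ended under library totals (adjusted p = 0.0647).

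For ATG12 the vesicle change minus the cell change was negative in 7 of 50 alanine rows and positive in 2, against 12.0% and 14.4%, 26.4% in all, of the 905 features. Negative and positive rows were 17 and 0 with library totals, 13 and 1 with TMM and 15 and 1 with edgeR. AGC-chr6-96 had -1.58 ± 0.34 and AGC-19-1 had -1.35 ± 0.34 (SE, adjusted p = 0.0018 and 0.00616); both fell in vesicles. In ATG12-/- cells AGC-chr6-96 was also called lower, at -0.62 ± 0.20 (SE, adjusted p = 0.0363), and AGC-19-1 was not called. Only 3 of the 11 rows called lower in ATG12-/- cells were called in all 17 alternatives. TGC-4-1 had -0.94 ± 0.25, AGC-7-1 -0.81 ± 0.19 and AGC-2-1 -0.68 ± 0.19 (SE), rows that rose in cells and were not called in vesicles. These 5 held in all 22 alternatives. For AGC-10-1, which fell in both, the difference was -0.74 ± 0.36 (SE, adjusted p = 0.143) and was not called. It was called under library totals (-1.32, 0.0118), TMM (-1.05, 0.0316) and edgeR (-1.15, 0.0125), and without wild type vesicle replicate 1 (-1.13, 0.00699). Without that library 13 rows were negative in place of 7. CGC-4-1 had -0.001 ± 0.21 (SE) and was not called.

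The balance of anticodons was measured within each library, which does not depend on scaling, by counting each numbered isodecoder once as the mean of its copies. The unnumbered rows were left out. Isodecoders with near-identical vesicle reads, such as AGC-12, AGC-13, AGC-16 and AGC-17, were each counted, so shared reads can enter the AGC sum more than once. Rows of these isodecoders were lower in ATG12-/- vesicles, and their part in the ratios below was not tested. In wild type vesicles AGC genes held 64.3% ± 1.04 of the summed isodecoder values, CGC 14.9% ± 1.91 and TGC 20.9% ± 1.60 (SD, n = 3). In wild type cells the shares were 62.5% ± 1.15, 15.1% ± 1.06 and 22.4% ± 0.095 (SD, n = 3). AGC genes thus held more than the other anticodons in both. The sums also add more AGC isodecoders, 23 of the 37, against 5 CGC and 9 TGC.

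In ATG12-/- vesicles the CGC share was 19.9% ± 0.915 (SD, n = 3). The log2 ratio of CGC to AGC was -1.72, -1.59 and -1.57 in ATG12-/- vesicles, against -1.90, -2.23 and -2.24 in wild type vesicles, a difference of 0.50 with no overlap. In ATG7-/- vesicles it was -2.07, -2.10 and -1.76, and these overlap wild type. It was higher in ATG12-/- than in ATG7-/- vesicles by 0.35, without overlap. In cells both knockouts were above wild type: the mean was -1.74 in ATG7-/- cells and -1.73 in ATG12-/- cells, against -2.05 in wild type cells. TGC to AGC averaged -1.26 in ATG7-/- cells and -1.24 in ATG12-/- cells, against -1.48 in wild type cells, again without overlap. The CGC sum averaged 2427 normalised reads in ATG12-/- cells, against 1723 in wild type cells. Within it, CGC-4-1 alone had 1372, 1426 and 1552 in ATG12-/- cells, against 809, 807 and 642 in wild type cells. CGC-3-1 instead was lower in both knockout cells, as described above. The part of CGC-4-1 in the CGC to AGC ratios of cells and vesicles was not tested. Of the 18 ratio tests, the lowest exact permutation p was 0.1, two-sided, the smallest possible, and 0.225 after adjustment. TGC to AGC was lower in vesicles than in cells with log2 differences of -0.44 in ATG7-/-, -0.47 in ATG12-/- and -0.15 in wild type, and the wild type groups had p = 0.2 by the exact permutation test.

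**Figure D5:**
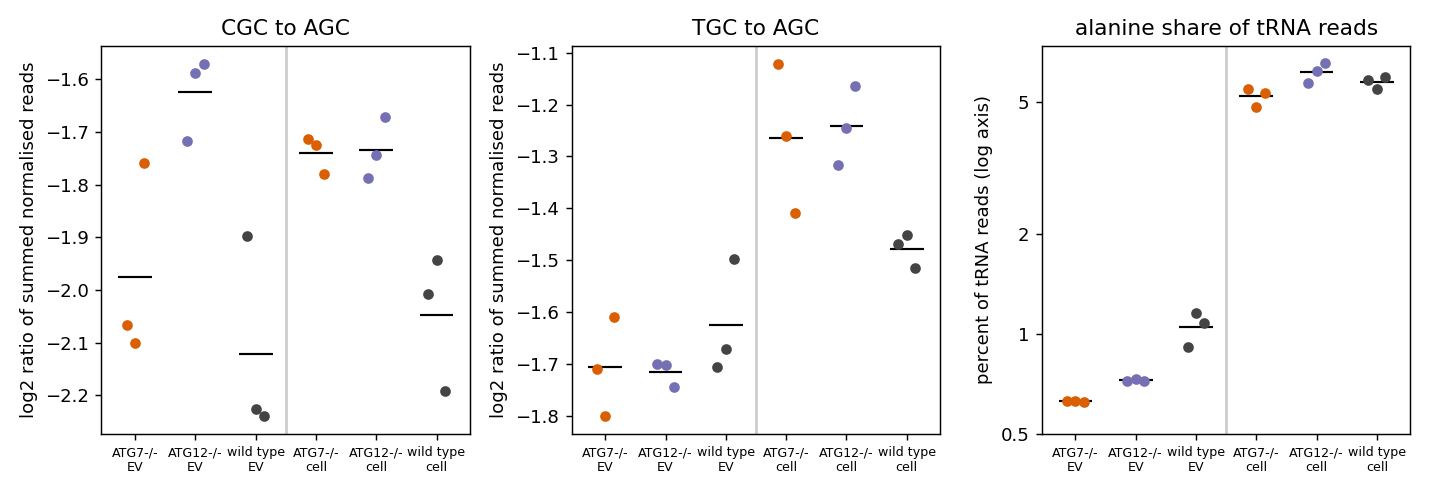
Log2 ratio of CGC to AGC and of TGC to AGC alanine tRNA reads, and the alanine share of tRNA reads in percent (log axis), in each library (points) of the 6 groups, with group means as lines. The CGC to AGC ratio of ATG12-/- vesicles lies above that of wild type vesicles, and the alanine share is 0.626% to 1.05% as group means in vesicles and 5.22% to 6.18% in cells.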

How the data were processed

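The deposited table holds 1 value per feature for 2462 features and 18 libraries. Per the labels' protocols, libraries were made with a SMARTer small RNA kit, which adds a poly(A) tail and switches templates, with 12 cycles of PCR. Sequencing was single-end, 50 bp, over 2 lanes. Cutadapt 2.3, Bowtie2 2.3, bedtools, DESeq2, GRCh38 and hg38 are named in the submitters' processing notes. The annotation, strand and handling of reads that match several genes are not given in the sources used here. The deposited values are a scaled signal: 100% of them were whole multiples of 1 step per library, within 1e-06 of a multiple. The multiples are called reads here, and the values as deposited are called normalised reads.

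The main test was limma 3.58.1 (R 4.3.3) with trend on log2 (normalised reads + 1), for features reaching 10 in at least 3 fitted libraries. It was fitted on all features, with Benjamini-Hochberg adjustment over them and a call at 0.05. Vesicle comparisons used the 9 vesicle libraries, cell comparisons the 9 cell libraries, and the others all 18. The adjusted p-values are limma's unless edgeR 4.0.16 or DESeq2 1.42.0 is named. Both were run on the recovered reads as alternatives. Shares and ratios were compared by exact permutation tests. Of the 51 alanine rows, 46 were tested in vesicles, 49 in cells and 50 over all libraries. The fit was first tested on simulated data. PCR copies are not independent molecules, so counting error understates the spread.

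The members and lists were chosen with earlier results of these data known. Genes named with values are the copy with the highest mean of each isodecoder averaging 10 or more, and the 10 called rows with the largest change in each direction. Rows outside this rule are named, without fits of their own, where called or near-identical rows are listed. Alternatives were another pseudocount, other minimums, library totals, TMM, TMM from microRNAs, edgeR, DESeq2, copies averaged, a replicate block, a fit over all 18 libraries, and leaving out each library in turn. The replicate numbers were not used to pair the samples in the main test.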

Additional observations from a re-analysis of the deposited data

Results flagged for a closer look

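Limma's test over all 18 libraries of the vesicle change minus the cell change called 16 alanine rows for ATG7 and 9 for ATG12; 10 of these values, in 9 genes, are given here. For ATG7 the vesicle change exceeded the cell change on the log2 scale by 1.22 in AGC-3-1, 1.18 in AGC-1-1, 1.06 in CGC-3-1 and 0.92 in AGC-10-1. For ATG12 it exceeded it by 1.11 in CGC-3-1, which under library totals was 0.53 (adjusted p = 0.123) and not called. For ATG12 the vesicle change minus the cell change was -1.58 in AGC-chr6-96, -1.35 in AGC-19-1, -0.94 in TGC-4-1, -0.81 in AGC-7-1 and -0.68 in AGC-2-1. AGC-2-1 and AGC-7-1 hold nearly the same reads. With 3 libraries a group, single libraries were not tested for standing apart.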

How the results depend on the processing

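The 12 alanine rows lower in ATG12-/- than in wild type vesicles each stayed lower and called in all 17 alternatives. Scaling moved the total of calls by over 1.5 times in 5 of the other 10 comparisons. A total does not show direction, which moved in others too. With library totals, ATG12-/- vesicles against cells had 0 higher and 43 lower, in place of 18 and 23. ATG12-/- against wild type cells had 14 higher and 3 lower, in place of 9 and 11. ATG7-/- against wild type vesicles had 6 called rows with library totals and 3 with microRNA scaling, in place of 15. ATG7-/- against wild type cells had 37 with microRNA scaling, in place of 17. ATG12-/- against ATG7-/- cells had 21 with microRNA scaling, 16 with DESeq2 and 6 in a fit over all 18 libraries, in place of 10. The ATG7 vesicle change minus cell change had 8 with library totals, 7 with TMM, 7 with edgeR and 32 with microRNA scaling, in place of 16. For ATG12 it had 17, 14 and 16 with library totals, TMM and edgeR, in place of 9. Leaving out 1 library gave 12 to 19 calls for ATG7-/- and 17 to 20 for ATG12-/- against wild type vesicles, 12 to 18 for ATG12-/- against ATG7-/- vesicles, 11 to 17 for ATG7-/- and 12 to 17 for ATG12-/- against wild type cells, 5 to 15 for ATG12-/- against ATG7-/- cells, and 11 to 26 (ATG7) and 7 to 16 (ATG12) for vesicle change minus cell change.

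Under library totals, vesicle-to-cell values turned to -0.0042 for AGC-12-3, -0.0129 for AGC-13-1 and -1.45 for CGC-4-1 in wild type, -1.92 for CGC-4-1 and -0.64 for AGC-3-1 in ATG7-/-, and -2.03 for CGC-4-1 in ATG12-/-; the cause was not tested. Small TGC to AGC ratios changed sign. With every row summed they were 0.056 for ATG7-/- and 0.102 for ATG12-/- against wild type vesicles and 0.0457 for ATG12-/- against ATG7-/- vesicles. With unnumbered rows counted, an alternative chosen after seeing the data, they were 0.0166 and 0.039 for ATG12-/- against wild type and ATG7-/- vesicles. Leaving out 1 library gave -0.0565 to 0.0392 for ATG12-/- against ATG7-/- vesicles and -0.0514 to 0.0928 for ATG12-/- against ATG7-/- cells. CGC to AGC in ATG12-/- against ATG7-/- cells was -0.0096 with every row summed and -0.0261 to 0.0313 with 1 library left out.

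The replicate block changed no count by over 1.5 times; for ATG12-/- against wild type vesicles it gave 19 calls, as without it. The deviations of same-numbered libraries from their group means correlated between -0.225 and 0.185. With 3 libraries a group, this cannot show whether the numbers pair the samples.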
